A study of Zea mays with 6 samples.

Results

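Organ boundary regulators and epidermal regulators were examined in coleoptile tips of the maize mutant fused leaves1 (fdl1), whose seedling leaves adhere to one another. The set held 5 genes of the 39283 listed in the expression table, taken by identifier and not by a threshold on their values. They were 3 NAC genes, nam1 (GRMZM2G139700), nam2 (GRMZM2G393433) and cuc3 (GRMZM2G430522), and 2 homeodomain-leucine zipper (HD-ZIP) class IV genes, ocl1 (GRMZM2G026643) and ocl4 (GRMZM2G123140). The names follow the list from which the genes were taken. The RefSeq gene table used here paired ocl1 and ocl4 with the same identifiers, but it gave GRMZM2G393433 the synonyms nam1 and CUC2 and did not hold the identifiers of the other 2 NAC genes, so that the identifier and not the name fixes which locus is meant.

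The mutant group carried fdl1-Mu, a transposon insertion in the gene for the MYB transcription factor FDL1 (ZmMYB94), and was compared with wild type in the same W22 inbred background. Each group had 3 replicates of tips 3 to 4 mm long from seedlings grown at 28°C, and the mutant tips that were taken looked normal according to the labels. The methods speak of homozygous and heterozygous fdl1-Mu plants, sampled 3 days after germination. They do not say whether heterozygous plants were counted as wild type. RNA was sequenced, and each gene has 1 deposited FPKM value for each group (sequenced fragments scaled to the length of the transcript and the size of the library), which joins the 3 replicates. These values have no spread between replicates and no read number beside them. The differences below are therefore descriptions of pooled values, without a test, and whether any of them exceeded the variation between replicates could not be measured here.

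NAM and CUC proteins are NAC-domain transcription factors that are made in the narrow band of cells between a meristem and the organ it forms, or between neighbouring organs. In Arabidopsis and petunia their loss leaves cotyledons or other organs joined, since growth is no longer held back in the boundary. HD-ZIP IV proteins act in the outermost cell layer, where the Arabidopsis members ATML1 and PDF2 are needed for epidermal identity, and the maize members were named OUTER CELL LAYER (OCL). The epidermis also makes the cuticle, the lipid coat that keeps touching organs from adhering. Fused organs can thus come about through either group of genes, and the comparison asked whether their transcripts differed in a mutant with fused leaves.

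All 5 genes had a lower FPKM in the group labelled fdl1-Mu, by amounts from 1.05-fold to 1.93-fold. The difference was largest for nam2 among the NAC genes and for ocl4 among the HD-ZIP genes, while nam1 and ocl1 lay closer to their wild-type values. None of the 5 reached a 2-fold difference. For comparison, 21364 genes were above 0 in both groups and reached 1 FPKM in at least one of them, and 1.31% of them were at least 2-fold lower and 4.67% at least 2-fold higher in the group labelled fdl1-Mu. A difference of at least 1.5-fold in the lower direction was found for 5.33% of these genes and for 2 of the 4 members that passed the same minimum, nam2 and ocl4. Any lower value at all was found for 47.7% of the genes, and the median log2 ratio over all of them was 0.02. The ratio of cuc3 was also past 1.5-fold, but its FPKM was under 1 in both groups.

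**Figure D1:**
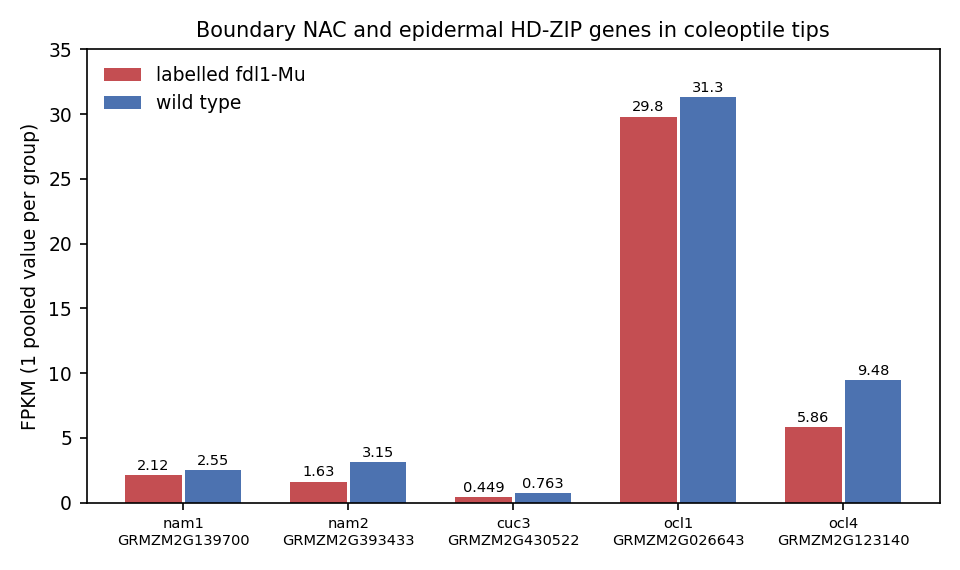
FPKM of the 5 genes (vertical axis, linear from 0) in the group labelled fdl1-Mu (red, left bar) and in wild type (blue, right bar). Each bar is 1 value pooled over 3 replicates, so that no error bar can be drawn. The red bar is the lower one of every pair, by little for ocl1 (29.8 against 31.3) and by more for nam2 (1.63 against 3.15) and ocl4 (5.86 against 9.48).

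The libraries had a targeted gene whose level does not check the labels. FDL1 (GRMZM2G056407) had an FPKM of 12.7 in the tips labelled fdl1-Mu and 4.58 in wild type, a log2 ratio of 1.48, and transcripts with and without the insertion are not separated in that value. Directions given here rest on the group labels. The summed FPKM was 683348 in the tips labelled fdl1-Mu and 668888 in wild type, and scaling to equal sums would move every log2 ratio by 0.031.

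Among the NAC genes, nam2 had an FPKM of 1.63 in the tips labelled fdl1-Mu and 3.15 in wild type. The mutant value was thus 51.7% of the wild-type value, a log2 ratio of -0.95. The gene lies on chromosome 6 of the B73v3 genome, at 16291317 to 16293647, and the nearest other gene in the table is 98 kb away, so that no annotated neighbour overlaps it. How common such a ratio is depends on the level, because weakly expressed genes scatter more. Of the 4942 other genes whose mean FPKM was within 2-fold of that of nam2, 2.55% had a log2 ratio as low or lower, and 11.5% had one at least as far from 0 in either direction. The middle 90% of these genes ran from -0.76 to 1.22, and nam2 lay below that range.

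The gene listed as nam1 had an FPKM of 2.12 in the tips labelled fdl1-Mu and 2.55 in wild type, a log2 ratio of -0.27. It lies on chromosome 3, at 137606842 to 137608651, with no other listed gene within 48.3 kb. A ratio this low or lower was found for 25.8% of the 4888 genes of like level, which places nam1 well inside their range. In maize, both NAM-type genes are known to be transcribed around the shoot meristem of the embryo.

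The order of the pair was not the same in the pooled values. In the tips labelled fdl1-Mu nam2 was the lower of the pair, with 0.768 times the FPKM of nam1, and in wild type it was the higher, with 1.24 times. FPKM is scaled to transcript length, so that these levels can be set side by side, but the order rests on values between 1.63 and 3.15 FPKM without replicate spread. NAM-type genes of maize are close relatives, and the deposited values do not tell how reads that fit both were divided. The sum of nam1 and nam2 was 3.76 FPKM in the tips labelled fdl1-Mu and 5.71 in wild type, a log2 ratio of -0.60. That sum is not free of the division either, because a shared read adds more FPKM to a shorter transcript. The loci span 1810 bp for nam1 and 2331 bp for nam2.

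CUC3 belongs to the same boundary system and in Arabidopsis acts partly in parallel with CUC1 and CUC2. Maize cuc3 had an FPKM of 0.449 in the tips labelled fdl1-Mu and 0.763 in wild type, a log2 ratio of -0.77, the lowest levels among the 5 genes. Its locus on chromosome 1, at 188939619 to 188942480, has no listed neighbour within 18.4 kb. At this level a ratio of that size was common. Of 3420 genes above 0 in both groups with a mean FPKM within 2-fold of that of cuc3, 13.1% had a ratio as low or lower, and the middle 90% ran from -1.28 to 1.68. With a pseudocount of 1 FPKM added to both values the log2 ratio of cuc3 was -0.28.

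Taken as a sum, the 3 NAC genes had 4.21 FPKM in the tips labelled fdl1-Mu and 6.47 in wild type, or 65% of the wild-type level. Most of that gap lay in nam2, which made up 38.8% of the sum in the tips labelled fdl1-Mu and 48.7% in wild type. The share of nam1 was 50.5% in the tips labelled fdl1-Mu and 39.5% in wild type, and that of cuc3 was 10.7% and 11.8% in the same order. The samples were whole tips, in which fewer boundary cells and less transcript per boundary cell cannot be told apart.

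Among the HD-ZIP IV genes, ocl1 was the most abundant of the 5 genes in each group. OCL1 is a maize factor of the embryonic protoderm and later epidermis, and plants made to overexpress it had altered waxes and higher transcripts of cuticle lipid genes. Its FPKM was 29.8 in the tips labelled fdl1-Mu and 31.3 in wild type, a log2 ratio of -0.07, so that the mutant value was 4.99% lower. Of the 6574 genes of like level, 79.3% had a ratio at least as far from 0, which makes the difference in ocl1 smaller than that of most genes expressed as it was. Of the 21364 genes, 77.8% were expressed below ocl1 in the tips labelled fdl1-Mu and 79.4% in wild type. The gene lies on chromosome 3, at 27552061 to 27559751.

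OCL4 is known in maize as an inhibitor of trichome formation and a regulator of cell division in the anther wall. Its gene, on chromosome 1 at 100912576 to 100918541, had an FPKM of 5.86 in the tips labelled fdl1-Mu and 9.48 in wild type, a log2 ratio of -0.69. The mutant value was 61.8% of the wild-type value. Of 7829 genes with a mean FPKM within 2-fold of that of ocl4, 2.66% had a ratio as low or lower, and 9.92% had one at least as far from 0. The middle 90% of these genes ran from -0.57 to 0.84, so that ocl4, like nam2, lay below the range of most genes of its level. The 2 epidermal genes thus stood apart in their ratios. The FPKM of ocl1 was 5.08 times that of ocl4 in the tips labelled fdl1-Mu and 3.3 times in wild type.

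**Figure D2:**
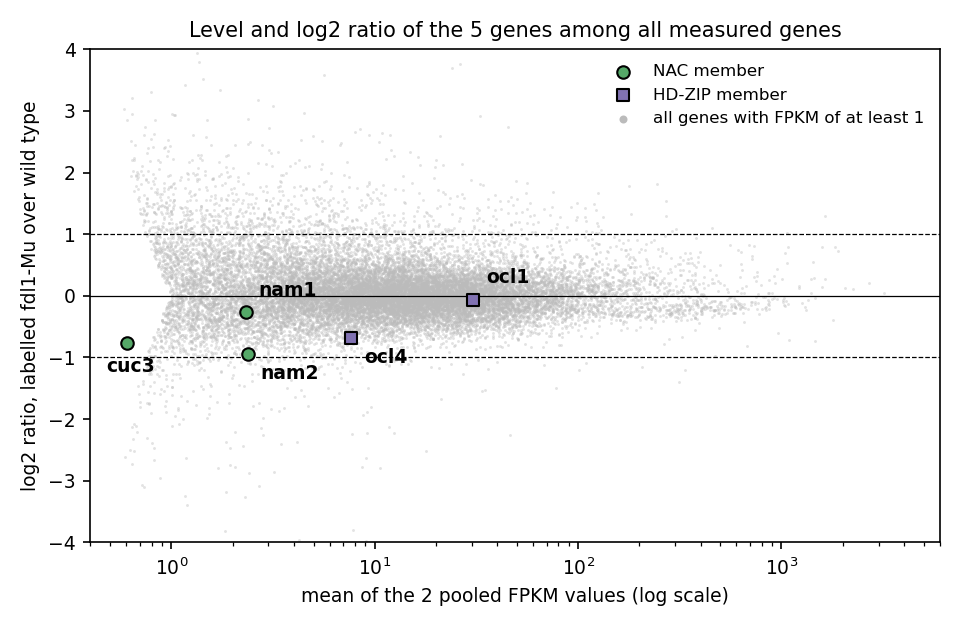
Log2 ratio of the tips labelled fdl1-Mu over wild type (vertical axis) against the mean of both pooled FPKM values (horizontal axis, log scale) for the 21364 genes that reached 1 FPKM (grey) and the 5 genes (green circles, NAC; purple squares, HD-ZIP). Dashed lines mark a 2-fold difference, and 21 grey genes lie outside the drawn range. All 5 genes are below 0 and above the lower dashed line, nam2 (-0.95) nearest to it and ocl1 (-0.07) nearest to 0. The point of cuc3 stands near the left edge of the grey cloud. That gene is not among the grey genes because its FPKM was under 1 in both groups.

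The order of levels within the set was ocl1, ocl4, nam1, nam2 and cuc3 in the tips labelled fdl1-Mu. In wild type it was the same except that nam2 stood above nam1. The steps from ocl1 to ocl4 and from nam1 to cuc3 were more than 3-fold in each group, whereas nam1 and nam2 were within 1.5-fold of each other, and without replicate values their order cannot be called different. The summed level of the boundary genes was small beside that of the epidermal genes. The FPKM of ocl1 alone was 7.08 times the sum of the 3 NAC genes in the tips labelled fdl1-Mu and 4.84 times in wild type.

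Other genes of the same families and processes were taken from lists made by name and not by a threshold on their ratios. For the HD-ZIP IV class, the name table gave 5 further genes with a value, and all 5 passed the minimum of 1 FPKM. With ocl1 and ocl4 these made 7 genes, of which 6 had a lower and 1 a higher FPKM in the tips labelled fdl1-Mu. Over all genes that passed, 47.7% were lower and 52.3% higher. The median log2 ratio of the 7 genes was -0.34, beside 0.02 over all genes that passed. None of the 7 reached 2-fold, and ocl4 alone reached 1.5-fold, in the lower direction, as 5.33% of all genes that passed did. The class includes regulators of epidermal differentiation, and its individual members overlap in function in Arabidopsis.

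Below ocl4 in the size of the difference came OCL6 (GRMZM2G001289), with an FPKM of 8.87 in the tips labelled fdl1-Mu and 13 in wild type, a log2 ratio of -0.55. OCL8 (GRMZM2G122897) had 12.5 FPKM in the tips labelled fdl1-Mu and 17.5 in wild type, a log2 ratio of -0.49. The log2 ratio was -0.34 for OCL14 (GRMZM2G145690) and -0.32 for ocl5 (GRMZM2G130442). The exception was ocl3 (GRMZM2G116658), with 14.4 FPKM in the tips labelled fdl1-Mu and 12.4 in wild type, a log2 ratio of 0.22. Summed over these 7 genes, the level was 86.8 FPKM in the tips labelled fdl1-Mu and 103 in wild type. The sum is not that of the whole class. It leaves out ocl2 and ocl5b, for which no value was found, and any member that the name table did not hold. Of this partial sum, ocl1 made up 34.3% in the tips labelled fdl1-Mu and 30.4% in wild type. The share of ocl4 was 6.74% and 9.2% in the same order. Without ocl1 the sum was 57.1 FPKM in the tips labelled fdl1-Mu and 71.7 in wild type, or 79.6% of the wild-type level. Reads shared between members of this family could not be told apart from the table.

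Of 9 other genes that act at boundaries or in the outgrowth of lateral organs, 6 were found in the table and 2 of them passed the minimum. One was ig1 (GRMZM2G118250), a LOB-domain gene related to Arabidopsis AS2 (asymmetric leaves), whose product limits KNOX expression in leaves. Its FPKM was 2.73 in the tips labelled fdl1-Mu and 4.87 in wild type, a log2 ratio of -0.84, between the ratios of ocl4 and nam2. The other was lg2 (GRMZM2G060216), a bZIP gene for the boundary between leaf blade and sheath, with 1.39 FPKM in the tips labelled fdl1-Mu and 1.37 in wild type. The remaining 4, lg1, ba1, bd1 and bif2, were below 0.32 FPKM in each group, a level at which a ratio says little. The bHLH gene ba1 and the ERF gene bd1, which act in inflorescences, were listed at 0 in the tips labelled fdl1-Mu and at 0.0546 and 0.0129 FPKM in wild type. All 8 precursor genes of miR164, the small RNA that cuts CUC1 and CUC2 transcripts in Arabidopsis, were listed at 0 in both groups, in libraries made from messenger RNA.

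KNOX genes, which keep meristem cells undifferentiated and which CUC proteins help to switch on in Arabidopsis, were not lower. All 3 KNOX genes described here that passed the minimum had a higher FPKM in the tips labelled fdl1-Mu, as had 52.3% of all genes that passed, so that a count of 3 says little. Their median log2 ratio was 0.30, and none was past 2-fold. The meristem gene kn1 (GRMZM2G017087) had 9.85 FPKM in the tips labelled fdl1-Mu and 9.35 in wild type, a log2 ratio of 0.08. The other 2 were lg3, with a log2 ratio of 0.30, and knox8, with 0.60, the only one to reach 1.5-fold in the higher direction, as 11.7% of all genes that passed did. Transcripts of meristem genes were thus present in the tips of both groups, at close levels for kn1. The values of knox8 were low, 2.02 FPKM in the tips labelled fdl1-Mu and 1.33 in wild type, and weakly expressed genes scatter more. Whether the amount of shoot apex in the tips differed, and its part in the NAC values, was not tested.

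**Figure D3:**
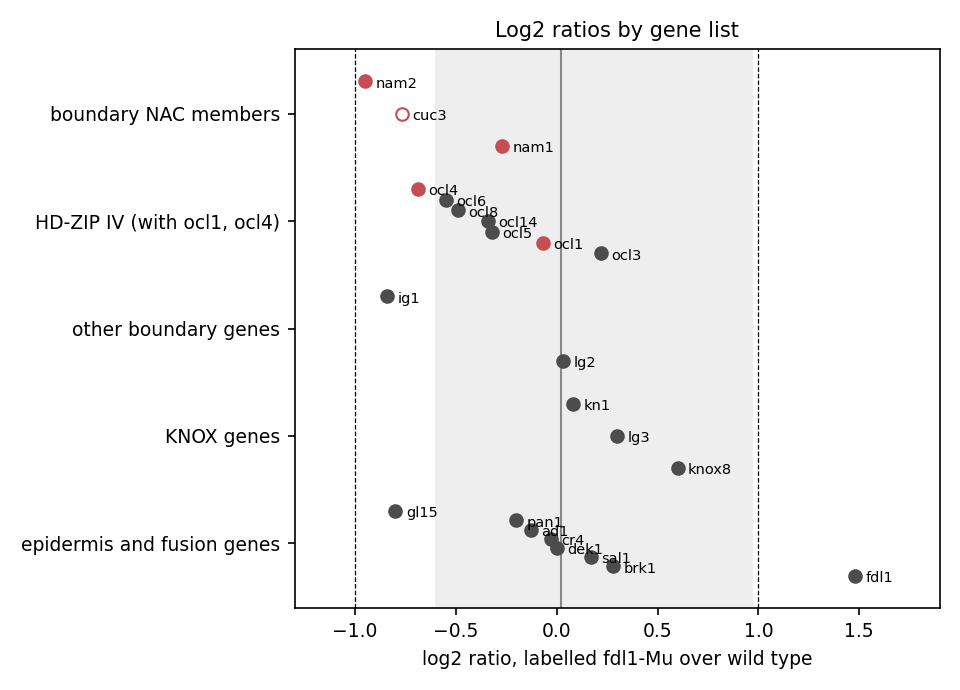
Log2 ratio of the tips labelled fdl1-Mu over wild type (horizontal axis) for the genes of 5 lists (vertical axis). Red points are the 5 genes of the set and dark points the other listed genes that reached 1 FPKM, cuc3 (open circle) being below that minimum, and vertical position within a list only separates the points. The grey band is the middle 90% of the 21364 genes (-0.60 to 0.97), the grey line their median and the dashed lines 2-fold. Of the red points, nam2, cuc3 and ocl4 lie left of the band and nam1 and ocl1 within it, while the KNOX points are all right of 0. The band does not cover the low level of cuc3, whose ratio was inside the middle 90% of genes of its own level (-1.28 to 1.68).

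Epidermal genes known from maize mutants gave no common direction. Of 11 listed, 8 had a value and passed the minimum, 5 lower and 3 higher, with a median log2 ratio of -0.02. Over all genes that passed, 47.7% were lower and 52.3% higher. The 3 higher genes include FDL1 itself, whose value does not separate transcripts with and without the insertion. Among the 5 lower, dek1 was nearly equal between the groups. The receptor kinase gene cr4 (GRMZM2G051637), whose mutants also show fused leaves, had 9.58 FPKM in the tips labelled fdl1-Mu and 9.79 in wild type. The calpain gene dek1 (GRMZM2G321753), which acts in epidermal and aleurone cell fate, had 21.8 and 21.9 FPKM in the same order. The wax elongase gene ad1 (GRMZM2G167438), whose mutants have fused leaves as well, had 16.1 FPKM in the tips labelled fdl1-Mu and 17.5 in wild type. The log2 ratios of pan1, sal1 and brk1, which act in subsidiary cell polarity, vesicle sorting and epidermal cell lobing, were -0.20, 0.17 and 0.28.

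Besides FDL1 itself, the only gene of this list past 1.5-fold was gl15 (GRMZM2G160730), an AP2-type gene for juvenile epidermal traits. It had 1.9 FPKM in the tips labelled fdl1-Mu and 3.31 in wild type, a log2 ratio of -0.80. In absolute size this ratio lay between ocl4 and nam2 of the set, at an FPKM close to that of nam2. Over all genes that passed, 5.33% were at least 1.5-fold lower and 11.7% at least 1.5-fold higher. Weakly expressed genes scatter more, and no range of genes of like level was computed for gl15.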

How the data were processed

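RNA-seq of coleoptile tips was used, with 3 wild-type and 3 fdl1-Mu replicates as grouped by the sample labels, which do not say whether replicates came from separate batches of plants. According to the methods and the submitters' processing notes, reads of stranded libraries were trimmed with Trimmomatic, mapped with TopHat2 2.1.1 to B73v3, a reference that differs from W22, and compared with Cuffdiff. The annotation was not given in the sources used here. The authors deposited FPKM values, 1 per gene and group, which Cuffdiff scales to transcript length and library size. The deposited status column, another measure made by the authors, marks 23139 genes as having enough reads, all 5 genes among them. Columns with the authors' fold change, statistic, p-value, q-value and significance were not used.

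Log2 ratios (fdl1-Mu over wild type) were computed without a pseudocount using Python 3.11.15, numpy 2.4.6, pandas 2.3.3 and matplotlib 3.10.9, and the code was tested on simulated data. Genes above 0 in both groups that reached 1 FPKM in at least one of them formed the background, and 2-fold was the main limit, with 1.5-fold as an alternative. Genes of like level had a mean FPKM within 2-fold of that of the gene described. Coordinates count from 1, for which 1 was added to the deposited starts. Other genes were found by symbol or synonym in the RefSeq table of Zm-B73-REFERENCE-NAM-5.0, used for names only, which held 48.4% of the identifiers. Named were the 5 genes, the listed genes that passed the minimum and some that did not. Of the NAC genes taken by symbol only a part was named. A gene of the KNOX list is not reported here. A planned list by protein similarity was not made, and no sequences were used here. Pseudocounts of 0.1 and 1, other minimum levels and 3 other scalings were tried. The members and lists were chosen with earlier results of these data known. Depth is unknown, so that no counting error is given.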

Additional observations from a re-analysis of the deposited data

How the results depend on the processing

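The log2 ratios of the 5 genes stayed below 0, under 2-fold and within 1.5-fold of the value given, under each of the 5 alternatives tried for them, 25 values in all. The sign and the 2-fold limit could not have been crossed, so that they say nothing about stability. An equal pseudocount in both groups only draws a ratio towards 0. The other scalings lowered every log2 ratio by 0.012 to 0.031, too little to carry nam2 (-0.95) past 2-fold. Only the pseudocounts could have moved a ratio by more than 1.5-fold. With a pseudocount of 1 FPKM the log2 ratios were -0.19 for nam1, -0.66 for nam2, -0.28 for cuc3, -0.07 for ocl1 and -0.61 for ocl4. Counts over all genes depended on the settings. The 997 genes at least 2-fold higher became 2192 with no minimum level, 378 with a mean FPKM of at least 5, 2501 at 1.5-fold and 421 with a pseudocount of 1. The 279 genes at least 2-fold lower became 1282, 76, 1139 and 103 under the same settings in that order. At 1.5-fold, 1 of 2 NAC members that passed the minimum, 1 of 7 HD-ZIP IV genes, 1 of 2 other boundary genes and 1 of 3 KNOX genes were past the limit. None of them was at 2-fold. Of 8 epidermis and fusion genes, 2 were past 1.5-fold and 1 past 2-fold. Of all genes that passed, 5.33% were at least 1.5-fold lower and 11.7% higher, and at 2-fold 1.31% and 4.67%. With no minimum level 2 other boundary genes were past 2-fold, in opposite directions. They were lg1 (log2 ratio -2.54) and bif2 (1.56), both below 0.32 FPKM in each group. The moves with the minimum level and the fold follow from those limits, and a pseudocount draws low values together by construction. No paired analysis was possible because the deposited values are pooled over the replicates. For the same reason no replicate could be left out.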

Other observations

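The NAC family reaches beyond the boundary genes, and several of its members respond to stress or act in ageing leaves. NAC genes were taken from the name table by symbol (NAC and a number), a list added after the values were seen. It held 26 genes including nam2 (there NAC119), of which 17 passed the minimum of 1 FPKM, 12 with a higher and 5 with a lower FPKM in the tips labelled fdl1-Mu, beside 52.3% higher and 47.7% lower over all genes that passed. The median log2 ratio was 0.22. Of these, 2 were at least 2-fold higher and none at least 2-fold lower, beside 4.67% and 1.31% of all genes that passed, and nam2 had the lowest ratio of the 17. One of the 2 was NAC40 (GRMZM5G898290), with 2.45 FPKM in the tips labelled fdl1-Mu and 0.817 in wild type, a log2 ratio of 1.59. The other, GRMZM2G336533, had 2.15 and 0.543 FPKM in the same order, a log2 ratio of 1.98. At 1.5-fold, 8 were higher and 2 lower, beside 11.7% and 5.33% of all genes that passed. The 2 lower were nam2 and GRMZM2G174080 (NAC57), whose log2 ratio of -0.84 was close to that of nam2. Its FPKM was 0.695 in the tips labelled fdl1-Mu and 1.25 in wild type. Of higher level was GRMZM2G347043, listed as NAC1, NAC49 and SNAC1, a name given to stress-responsive NAC genes in cereals, with 48.8 FPKM in the tips labelled fdl1-Mu and 28 in wild type. GRMZM2G003715 (NAC61) had 12.2 and 6.87 FPKM in the same order. The most abundant, NAC120 (GRMZM2G176677), had 69 FPKM in the tips labelled fdl1-Mu and 65.3 in wild type. The genes listed as nam1 and cuc3 were not among the 26, since the name table did not hold their identifiers.

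Genes of the C4 cycle and of Rubisco (ssu1) were used to see whether green leaf tissue was in the tips. Of 4 with a value, ppdk1 (GRMZM2G306345) had 7.43 FPKM in the tips labelled fdl1-Mu and 16.2 in wild type, ssu1 (GRMZM2G098520) had 4.41 and 1.88, me3 (GRMZM2G085019) had 4.32 and 4.83, and the PEPC gene GRMZM2G083841 had 0.0603 and 0.0251, each in the same order. Of these, ppdk1 and ssu1 thus differed by more than 2-fold in opposite directions, and the PEPC gene was near 0 in both groups. Over all genes that passed, 1.31% were at least 2-fold lower and 4.67% at least 2-fold higher.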
